A study of Mus musculus with 6 samples.

Results

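The genes of the oxidative phosphorylation machinery were compared between liver tumor cell lines that lack p53 and liver tumor cell lines in which *Kmt2c* was targeted. Members were chosen by name alone. A gene entered when its symbol began with Ndufa, Ndufb, Ndufc, Ndufs or Ndufv and a digit, with Uqcr, with Cox and a digit from 4 to 8 or with Atp5, when it was *Sdha*, *Sdhb*, *Sdhc* or *Sdhd*, or when it was a mitochondrial gene with a symbol starting mt-Nd, mt-Co, mt-Cytb or mt-Atp. The rule found 96 of the 20856 genes with values, of which 13 are encoded in the mitochondrial genome and 83 in the nucleus. It catches a few genes that are not subunits, such as the pseudogene *Atp5l-ps1*, the coupling factor B gene *Atp5s*, the assembly factor gene *Atp5sl* and the supercomplex factor gene *Cox7a2l*, and misses cytochrome c and a handful of subunits named otherwise.

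RNA-seq had been done on 6 cell lines, 3 *Myc*; sg*Trp53* and 3 *Myc*; sg*Kmt2c*, each represented by a single library. The lines came from tumors of young adult female C57BL/6 mice whose livers had received, by hydrodynamic tail vein injection, a transposon carrying *Myc* together with the plasmid pX330, which expresses Cas9 and a guide RNA against *Trp53* or against *Kmt2c* (the gene for the histone methyltransferase MLL3). All lines therefore carried the *Myc* transposon and had been exposed to Cas9, neither genotype has both genes intact, and no line with an untargeted genome was in the comparison. The paper describes the lines of a genotype as derived from different mice, and the labels name *Myc*; sg*Kmt2c* replicates 2 and 3 as 2A and 2T1. Cells were grown on collagen in complete DMEM until no fibroblasts could be seen. The 3 libraries of a genotype are the replicates throughout, and a fold change always means *Myc*; sg*Kmt2c* over *Myc*; sg*Trp53*.

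Oxidative phosphorylation is carried out in the inner mitochondrial membrane. Complex I (NADH dehydrogenase) and complex II (succinate dehydrogenase) feed electrons to ubiquinone, complex III passes them to cytochrome c, complex IV (cytochrome c oxidase) hands them to oxygen, and complex V (ATP synthase) uses the resulting proton gradient to make ATP. The mitochondrial genome is transcribed as long polycistronic RNAs and encodes core subunits of every complex except complex II, while the remaining subunits are transcribed in the nucleus and imported. Hepatocytes are rich in mitochondria, and MYC is known as a driver of nuclear genes for mitochondrial proteins.

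Levels are given as RPKM, the reads on a gene per kilobase of its listed transcript, scaled to the reads counted on all genes of the library. Reads counted on genes ranged from 5312182 to 6878625 in the *Myc*; sg*Trp53* libraries and from 3680068 to 4704539 in the *Myc*; sg*Kmt2c* libraries, and every library was run in both lanes of the same flow cell. *Trp53* was at 17.2, 17.6 and 19.4 RPKM where *Trp53* was the target and at 92.2, 124 and 121 RPKM where *Kmt2c* was. *Kmt2c* RNA did not separate the genotypes, at 24.2, 18.4 and 19.2 RPKM against 19.7, 25.0 and 9.51 RPKM. Of 8 hepatocyte marker genes only 1 reached 1 RPKM in every line, albumin (*Alb*) stood between 0.644 and 4.36 RPKM, and the summed hepatocyte markers ranged from 15.4 to 32.5 RPKM in the *Myc*; sg*Trp53* lines but from 4.60 to 1302 RPKM in the *Myc*; sg*Kmt2c* lines. Among these markers, *Hnf4a* was at 24.7, 3.49 and 15.8 RPKM in the *Myc*; sg*Trp53* lines. It was at 1186, 0.629 and 169.9 RPKM in the *Myc*; sg*Kmt2c* lines. Summed fibroblast markers (8 genes) ranged from 18.4 to 996 RPKM and from 0.282 to 156 RPKM, the summed biliary or progenitor markers (5 genes) from 90.9 to 1008 RPKM and from 91.5 to 3468 RPKM, and the summed epithelial markers (3 genes) from 24.3 to 776 RPKM and from 230.0 to 3918 RPKM. Immune markers (4 genes) summed to at most 7.83 RPKM, nearly all of it *Cd68*, endothelial markers (3 genes) to at most 0.284 RPKM and the muscle markers measured (2 of 4) to at most 1.63 RPKM.

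The sequences of a few mitochondrial genes are shown first because they bear on how the 13 mitochondrially encoded members can be read. *mt-Atp8*, which encodes a small membrane subunit of ATP synthase, had at most 1 read in any library, and its whole transcript (GENCODE transcripts of the NCBIM37 assembly) also occurs without a difference on chromosome 1. *mt-Nd4*, a proton-pumping subunit of complex I, is copied there only up to its base 876. Its bases 837 to 916 are printed with the copied part in capitals. *mt-Nd6*, the complex I subunit read from the other strand of the mitochondrial genome, has no perfect copy. Its first 80 bases and their best match at chr4:79649739-79649818 (minus strand, NCBIM37) are printed with the 3 positions that differ in capitals.
mt-Atp8: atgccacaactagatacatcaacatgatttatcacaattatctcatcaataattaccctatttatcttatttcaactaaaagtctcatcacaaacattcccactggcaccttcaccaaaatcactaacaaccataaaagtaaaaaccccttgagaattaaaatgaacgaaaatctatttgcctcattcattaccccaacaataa
mt-Nd4: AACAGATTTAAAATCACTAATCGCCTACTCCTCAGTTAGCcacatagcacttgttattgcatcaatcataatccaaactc
mt-Nd6: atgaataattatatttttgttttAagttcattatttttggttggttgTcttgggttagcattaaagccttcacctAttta
chr4 copy of mt-Nd6: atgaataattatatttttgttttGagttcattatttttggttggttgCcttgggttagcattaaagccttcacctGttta

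Searched with every 50-base window of their transcripts against the rest of NCBIM37, the mitochondrial genes fell into separate classes. *mt-Co2*, *mt-Atp8*, *mt-Atp6*, *mt-Co3* and *mt-Nd4l* had an identical copy elsewhere for 100% of their windows and *mt-Nd3* for 99.0%. All of these copies lie in a single stretch of 4654 bases at chr1:24618374-24623027, on the minus strand. The stretch also holds the first 876 bases of *mt-Nd4*, of whose windows 62.2% had an identical copy, and the last 483 bases of *mt-Co1* at 99.8% identity. For *mt-Co1* the share was 51.1%, to which other copies contribute, among them a full-length match of 1545 bases at chr2:22443623-22445167 (minus strand) with 97.6% identity. The share was 8.29% for *mt-Nd2*, 7.61% for *mt-Nd5* and 0% for *mt-Nd1*, *mt-Cytb* and *mt-Nd6*. The assembly used by the deposited files, GRCm38, differs from NCBIM37, but RefSeq lists the genes *Gm10222* (chr1:24612404-24612700) and *Gm10925* (chr1:24613971-24614651) in it, with 297 and 681 bases, the lengths of *mt-Nd4l* and *mt-Atp6*. Neither has a row in the deposited table.

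The 6 mitochondrial genes with nearly all windows copied are the 6 mitochondrial members with 0 or 1 read in each library. *mt-Co2* and *mt-Nd3* had their only read in *Myc*; sg*Kmt2c* replicate 2, *mt-Atp6* in *Myc*; sg*Kmt2c* replicate 1, *mt-Atp8* and *mt-Co3* in *Myc*; sg*Trp53* replicate 1 and *mt-Nd4l* in *Myc*; sg*Trp53* replicate 3. The other 7 mitochondrial members, all with at least 37.8% of windows free of a copy, had mean levels of 1014 to 5692 RPKM over the 6 lines. Apart from *mt-Nd6*, which is read from the other strand, all these genes lie on the same polycistronic transcripts. The values at 0 therefore cannot be read as absence of the RNA, and no fold change was computed for those 6 genes. Copied windows did not always go with missing reads among the nuclear members. The pseudogene *Atp5l-ps1*, with 55.1% of its windows copied, had 0 reads in every library. *Atp5g2*, with 100% of its windows copied, had 190 to 330 reads per library, and *Atp5l*, with 89.4%, had 189 to 328. How reads that match several places were counted is not given in the sources used here.

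**Figure D1:**
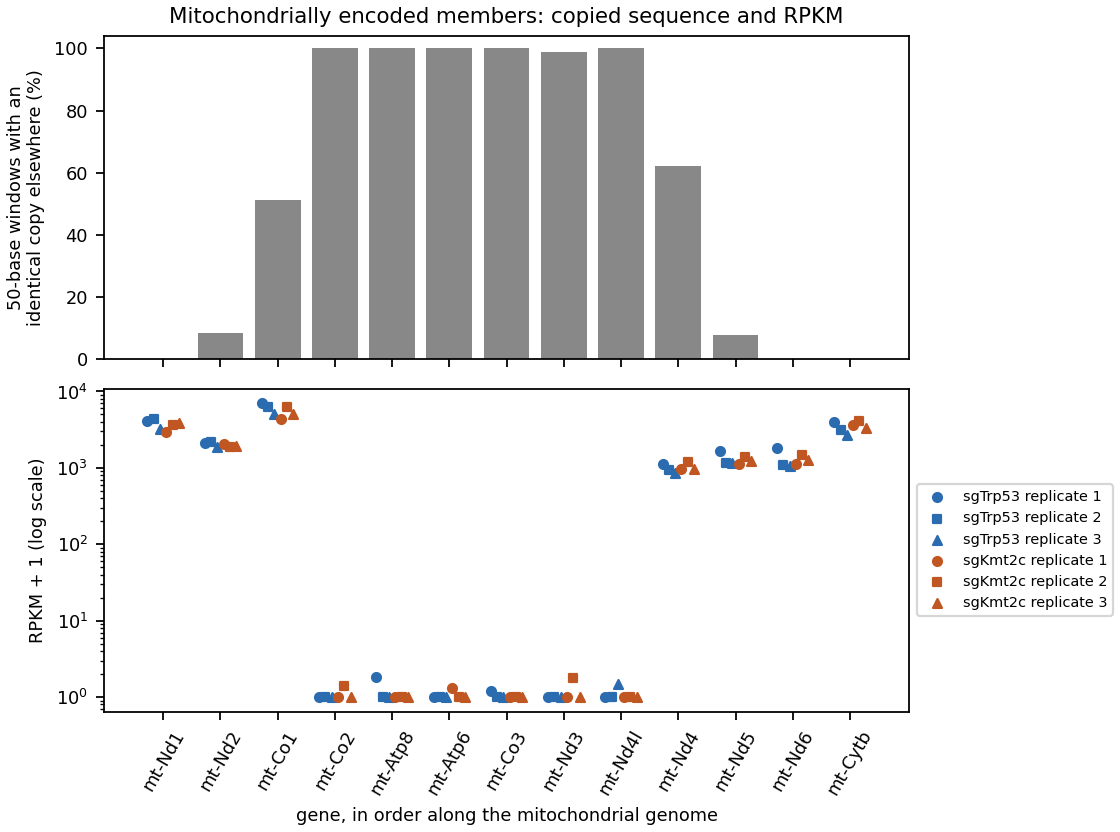
Mitochondrially encoded members in their order along the mitochondrial genome. Bars give the percentage of 50-base windows with an identical copy elsewhere in NCBIM37, and points give RPKM + 1 of each line on a log scale (blue, *Myc*; sg*Trp53*; orange, *Myc*; sg*Kmt2c*; circle, square and triangle for replicates 1, 2 and 3). The 6 genes with 99.0% to 100% of windows copied sit at the bottom of the scale in all lines, and the other 7 lie at 851 RPKM or more in both genotypes.

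None of the 7 measurable mitochondrial genes separated the genotypes. *mt-Co1* (MT:5328-6872), the catalytic core of complex IV, was the most abundant, with 6998, 6226 and 5105 RPKM in *Myc*; sg*Trp53* replicates 1, 2 and 3 and 4387, 6342 and 5095 RPKM in *Myc*; sg*Kmt2c* replicates 1, 2 and 3, the order kept below. Its log2 fold change was -0.22 (SE 0.26, 95% confidence interval -0.83 to 0.40, limma adjusted p = 0.802). The ranges of the genotypes overlapped, with *Myc*; sg*Kmt2c* replicate 2 above *Myc*; sg*Trp53* replicates 2 and 3.

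*mt-Cytb* (MT:14145-15288), the cytochrome b of complex III, was at 4044, 3137 and 2676 RPKM against 3689, 4135 and 3315 RPKM. The *Myc*; sg*Kmt2c* lines were on average the higher ones here, with a log2 fold change of 0.19 (SE 0.25, limma adjusted p = 0.813). The highest line was *Myc*; sg*Kmt2c* replicate 2 and the lowest *Myc*; sg*Trp53* replicate 3. *mt-Nd1* (MT:2751-3707), a membrane subunit of complex I near the quinone site, was at 4115, 4324 and 3205 RPKM against 2980.2, 3611 and 3907 RPKM. *mt-Nd2* (MT:3914-4951), a proton-pumping subunit of complex I, varied least, at 2146, 2193 and 1853 RPKM against 2067, 1872 and 1910.0 RPKM. For both genes the genotypes overlapped, with log2 fold changes of -0.15 and -0.08.

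The remaining complex I subunits of the mitochondrial genome were lower in level and just as mixed. *mt-Nd4* (MT:10167-11544) was at 1134, 951 and 851 RPKM against 962, 1204 and 981 RPKM, a log2 fold change of 0.10. *mt-Nd5* (MT:11742-13565), another proton pump, was at 1663, 1168 and 1143 RPKM against 1120.1, 1382 and 1235 RPKM, a log2 fold change of -0.07. *mt-Nd6* (MT:13552-14070) was at 1796, 1077 and 1065 RPKM against 1121, 1460.3 and 1282 RPKM, a log2 fold change of 0.01. The library kit named in the labels does not mark strand, so reads from the strand opposite *mt-Nd6* cannot be told apart from its own.

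By level, *mt-Co1* came first, *mt-Nd1* and *mt-Cytb* next with overlapping ranges, then *mt-Nd2*, and then *mt-Nd6*, *mt-Nd5* and *mt-Nd4*, whose ranges overlapped too. Dividing the mean RPKM by the share of windows without a copy, a calculation that assumes reads of 50 bases and no count for copied windows, gave 11649 for *mt-Co1* and 2684 for *mt-Nd4* in place of 5692 and 1014, and put *mt-Nd4* between *mt-Cytb* and *mt-Nd2*. This division is the same in every line and leaves the fold changes as they are. The assumption of no count did not hold for the nuclear member *Atp5g2*, which had reads although all of its windows are copied.

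Summed over genes, the mitochondrial and the nuclear members took similar shares of reads in both genotypes. The mitochondrial members took 2.72%, 2.37% and 1.98% of the reads on genes in the *Myc*; sg*Trp53* lines and 2.00%, 2.49% and 2.17% in the *Myc*; sg*Kmt2c* lines, a mean of 2.35% ± 0.37 (SD, n = 3) against 2.22% ± 0.25 (SD, n = 3). The nuclear members took 1.03%, 1.06% and 0.899% against 0.774%, 0.942% and 1.06%, a mean of 0.994% ± 0.0838 (SD, n = 3) against 0.926% ± 0.145 (SD, n = 3). The lines of the genotypes overlapped in both sums, and the lowest nuclear share of all belonged to *Myc*; sg*Kmt2c* replicate 1.

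The ratio of mitochondrial to nuclear member reads did not track the genotype either. It was 2.65, 2.24 and 2.20 in the *Myc*; sg*Trp53* lines and 2.58, 2.65 and 2.04 in the *Myc*; sg*Kmt2c* lines. Because 6 mitochondrial genes contribute almost no reads, the ratio understates the mitochondrial side in every line, and it compares lines only. In bulk RNA a lower level per cell and a smaller number of expressing cells cannot be told apart.

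**Figure D2:**
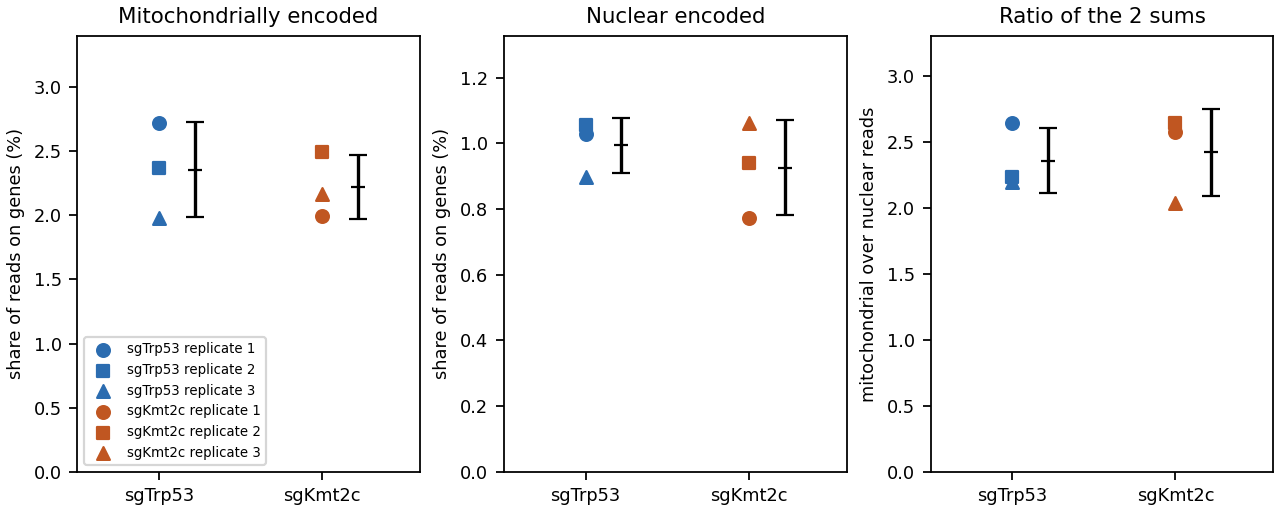
Share of reads on genes taken by the mitochondrially encoded members, by the nuclear encoded members, and the ratio of the 2 read sums, for each line (points) with the mean and SD of the 3 lines of a genotype (bars). The genotypes overlap in all panels, and *Myc*; sg*Kmt2c* replicate 1 has the lowest nuclear share, 0.774%.

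Of the 96 members, 83 reached 1 RPKM in 3 or more libraries and were tested with limma, among 11617 genes in all. The 13 not tested were the 6 mitochondrial genes above and 7 nuclear ones. No member passed an adjusted p of 0.05 in either direction. Over all genes tested, 6 passed as higher in the *Myc*; sg*Kmt2c* lines (0.0516%) and 9 as lower (0.0775%), so that fewer than 1 member would be called at those rates. At an unadjusted p under 0.05, 3 members were lower and 0 higher, against 5.34% of all genes lower and 3.25% higher. limma voom on recovered reads gave 0 members past the adjusted threshold and 1 at an unadjusted p under 0.05.

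The 3 lines of one genotype lay entirely below or above those of the other in 9 of the 83 tested members, 8 lower and 1 higher in the *Myc*; sg*Kmt2c* lines, all nuclear. Over all genes tested, 10.4% were lower and 5.72% higher without overlap, so the members' counts were close to or under the background. An exact permutation test of a single gene, with 3 lines against 3, cannot give a two-sided p under 0.1. The median log2 fold change was -0.11 over the 76 tested nuclear members, -0.07 over the 7 tested mitochondrial members and -0.09 over all genes tested. A negative sign was found in 53 of 76 nuclear and 4 of 7 mitochondrial members, and in 58.0% of all genes. Scaling by the median of ratios moved the median of all genes to -0.02, the nuclear members to -0.03 and the mitochondrial members to 0.01, so the direction of the mitochondrial median flips with the scaling. Under quantile normalization the mitochondrial median was -0.17 and the nuclear median -0.07, against -0.01 for all genes.

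The absence of calls came with narrow intervals. For 64 of 76 nuclear members and all 7 mitochondrial members tested, the 95% confidence interval of the fold change lay within a factor of 2 in either direction, against 45.9% of all genes. The median SD between lines of a genotype, on the log2(RPKM + 1) scale, was 0.27 for the nuclear members and 0.24 for the mitochondrial ones, against 0.37 for all genes tested. The members are also more abundant than most genes, with a median level of 98.7 RPKM for the nuclear ones against 14.7 RPKM for all genes tested.

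**Figure D3:**
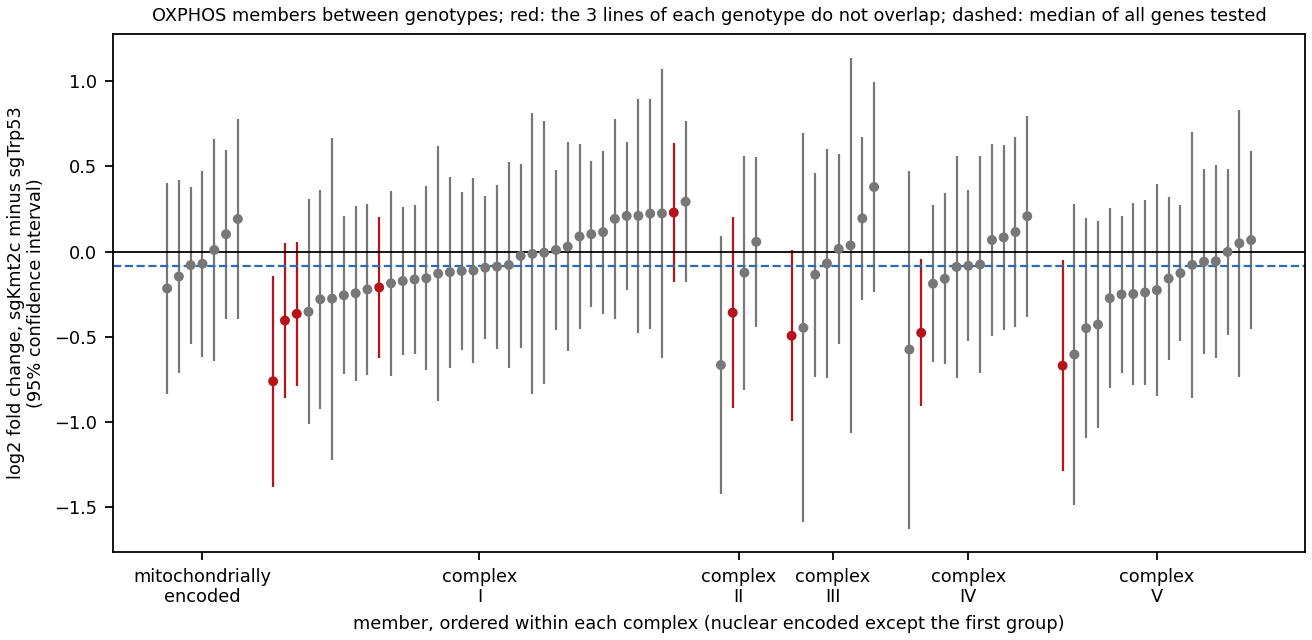
Log2 fold change of each tested member (*Myc*; sg*Kmt2c* minus *Myc*; sg*Trp53*, limma on log2(RPKM + 1)) with its 95% confidence interval, ordered by size within the mitochondrially encoded members and the nuclear members of each complex. Red marks the 9 members whose lines do not overlap between genotypes, and the dashed line is the median of all genes tested, -0.09; most intervals cross 0.

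Members were placed in complexes by their symbols. *Ndufa4* and *Ndufa4l2* are therefore counted with complex I, *Cox7a2l* with complex IV, and *Atp5l-ps1*, *Atp5s* and *Atp5sl* with complex V. Complex I, the largest complex, has 37 nuclear members here, of which 36 were tested, with a median log2 fold change of -0.10 and 24 negative values. *Ndufc1* (chr3:51404677-51408988), a small accessory subunit of the membrane arm, had the smallest unadjusted p of all members. It was at 26.3, 38.2 and 25.2 RPKM against 13.9, 16.1 and 21.5 RPKM. All *Myc*; sg*Kmt2c* lines lay below all *Myc*; sg*Trp53* lines. The log2 fold change was -0.76 (SE 0.26, 95% confidence interval -1.38 to -0.14, unadjusted p = 0.0232, limma adjusted p = 0.506).

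The other complex I genes without overlap differed less. *Ndufa7* (chr17:33824591-33838316), an accessory subunit, was at 164, 167 and 157 RPKM against 106, 150.0 and 116 RPKM, a log2 fold change of -0.41 (limma adjusted p = 0.608). *Ndufa2*, an accessory subunit with a thioredoxin-like fold, was at 104, 135 and 115 RPKM against 86.1, 90.1 and 97.3 RPKM, a log2 fold change of -0.37 (limma adjusted p = 0.616). *Ndufs3* (chr2:90894634-90904827), a core subunit of the matrix arm, was at 148, 189 and 152 RPKM against 142, 141 and 137 RPKM, where the nearest lines of the genotypes were at 148 and 142 RPKM.

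*Ndufb9* (chr15:58933810-58939489), an accessory subunit of the membrane arm, was the only member higher in every line of that genotype, at 138, 139 and 132 RPKM against 122, 128 and 100.3 RPKM, and had a log2 fold change of 0.23 (SE 0.17, limma adjusted p = 0.719). *Ndufb2*, an accessory subunit of the membrane arm, had the lowest level among the tested members of complex I, at 7.65, 4.95 and 6.31 RPKM against 4.42, 11.1 and 8.14 RPKM. This rank depends on the listed transcript length, which is 4371 bases for *Ndufb2*.

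Complex II, the only complex with no mitochondrial gene, has 4 members, all tested, with a median log2 fold change of -0.24 and 3 negative values. *Sdhc* (chr1:171127165-171150603), a membrane anchor, was the lowest of the 4 and was at 36.6, 47.9 and 35.7 RPKM against 23.8, 35.5 and 34.4 RPKM. The genotypes did not overlap, but *Myc*; sg*Trp53* replicate 3 and *Myc*; sg*Kmt2c* replicate 2 differed by less than 1 RPKM, and the log2 fold change of -0.36 had an interval of -0.92 to 0.20 (limma adjusted p = 0.698). *Sdhd*, the other anchor and the highest of the complex, was at 154, 112 and 101 RPKM against 77.0, 126 and 138 RPKM. *Sdha* and *Sdhb*, the flavoprotein and iron-sulfur subunits, were named outside the rule, after their values were seen. *Sdha* was at 114, 107 and 83.5 RPKM against 89.9, 123 and 104 RPKM, and *Sdhb* at 89.0, 102 and 75.7 RPKM against 41.1, 46.3 and 88.3 RPKM. *Myc*; sg*Kmt2c* replicates 1 and 2 had the lowest *Sdhb* levels, while replicate 3 lay among the *Myc*; sg*Trp53* lines.

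Complex III has 8 nuclear members, with a median log2 fold change of -0.03 and 4 of 8 values negative. *Uqcr10* (chr11:4701973-4704342), a small membrane subunit, was at 215, 182 and 141 RPKM against 114, 132 and 130.4 RPKM. The *Myc*; sg*Kmt2c* lines were all lower, and the log2 fold change was -0.49 (SE 0.21, 95% confidence interval -1.0 to 0.01, limma adjusted p = 0.589). *Uqcrh*, the hinge protein and the highest of the complex, was at 292, 302 and 192 RPKM against 87.6, 269 and 280.5 RPKM, so that a single *Myc*; sg*Kmt2c* line stood apart. Without that line its log2 fold change was 0.10 in place of -0.45. *Uqcrq*, a small subunit and the lowest of the complex, was at 75.4, 54.5 and 67.6 RPKM against 77.7, 42.3 and 72.7 RPKM.

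Complex IV has 16 nuclear members, of which 11 were tested, with a median log2 fold change of -0.08 and 7 negative values. *Cox6a1* (chr5:115345642-115348981), the ubiquitous isoform of subunit VIa, was at 269.9, 250.5 and 238 RPKM against 178, 159 and 210.2 RPKM. The *Myc*; sg*Kmt2c* lines were all lower, and the log2 fold change was -0.48 (SE 0.18, 95% confidence interval -0.91 to -0.04, unadjusted p = 0.0352, limma adjusted p = 0.557). *Cox4i1*, the subunit at which ATP regulates the enzyme, was the highest nuclear gene of complex IV, at 422, 393 and 346 RPKM against 382, 287 and 354 RPKM. *Cox7a2l*, the lowest of those tested, was at 84.9, 91.3 and 63.8 RPKM against 84.4, 119.9 and 75.7 RPKM, and 53.7% of its windows have a copy elsewhere.

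Several complex IV subunits, subunit NDUFA4 and the c subunit of ATP synthase have alternative isoforms, some of them typical of heart and skeletal muscle, lung or testis. For the complex IV subunits and NDUFA4, the ubiquitous or liver type was the measurable one in all 6 lines. *Cox4i2*, the lung isoform induced by low oxygen, and *Cox8b*, a heart and muscle isoform, had 0 reads in every library, which allows up to 0.600 to 1.12 RPKM for *Cox4i2* and 1.2 to 2.25 RPKM for *Cox8b* at 3 reads per library. *Cox6a2*, the heart and muscle isoform of subunit VIa, reached at most 0.662 RPKM, against 159 RPKM or more for *Cox6a1*. *Cox6b2*, the testis isoform of subunit VIb, had 2 reads in *Myc*; sg*Kmt2c* replicate 2 and none elsewhere, whereas *Cox6b1* was at 225, 189.8 and 208 RPKM against 136, 203 and 268 RPKM.

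*Cox7a1*, the heart and muscle isoform of subunit VIIa, had 0, 3 and 1 reads in the *Myc*; sg*Trp53* lines and 4, 0 and 0 reads in the *Myc*; sg*Kmt2c* lines. Its liver counterpart *Cox7a2* was at 124, 115 and 116 RPKM against 37.4, 121 and 109.5 RPKM. The *Myc*; sg*Trp53* lines lay close together (119 ± 4.83 RPKM, SD, n = 3), and *Myc*; sg*Kmt2c* replicate 1 alone lay far below. *Ndufa4l2*, a gene known as a target of hypoxia-inducible factor, had 1 read in 1 library. *Ndufa4*, now placed in complex IV but counted with complex I here, was at 283, 188 and 253 RPKM against 151, 312 and 281 RPKM. *Cox7b* was at 139, 86.4 and 111 RPKM against 78.4, 114 and 127 RPKM and *Cox8a* at 336, 278 and 257 RPKM against 255, 404 and 296 RPKM, both overlapping. No deposited values carry the symbols *Cox7b2* or *Cox8c*.

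**Figure D4:**
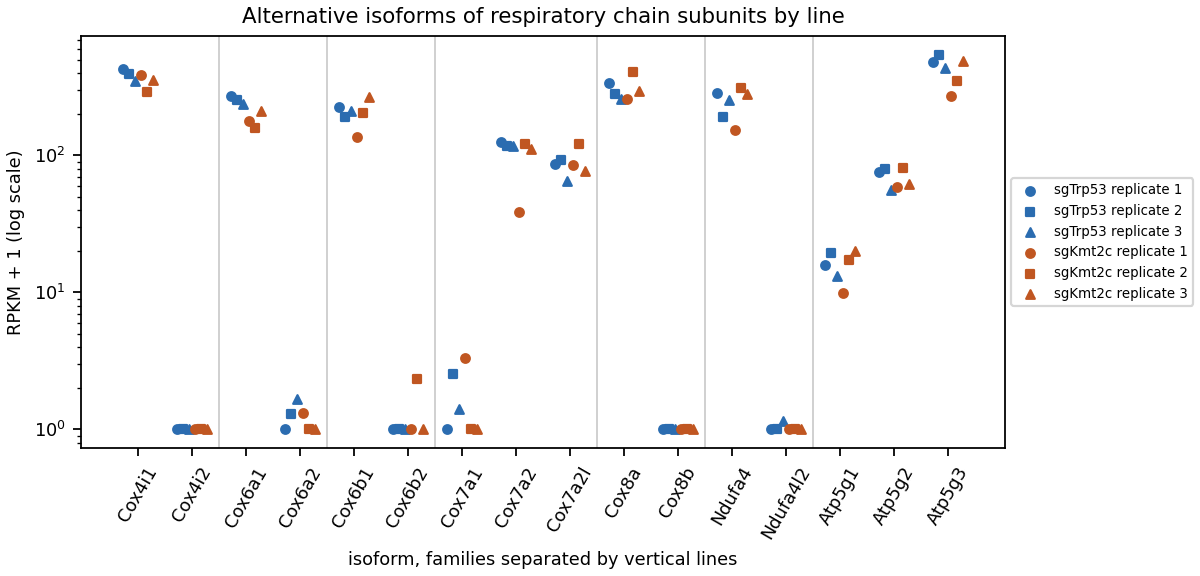
RPKM + 1 of each line (log scale) for alternative isoforms of complex IV subunits, NDUFA4 and the ATP synthase c subunit, with families separated by vertical lines. The tissue-restricted isoforms *Cox4i2*, *Cox6a2*, *Cox6b2*, *Cox7a1*, *Cox8b* and *Ndufa4l2* stay at or below 2.33 RPKM, and *Myc*; sg*Kmt2c* replicate 1 is the low point of *Cox7a2*.

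Complex V has 18 members, of which 17 were tested, with a median log2 fold change of -0.23 and 15 negative values. *Atp5f1* (chr3:105942698-105960099), subunit b of the peripheral stalk, was at 182, 233 and 177 RPKM against 92.5, 120.1 and 166 RPKM. It was the only member of complex V without overlap, with a log2 fold change of -0.67 (SE 0.26, 95% confidence interval -1.29 to -0.05, unadjusted p = 0.0378, limma adjusted p = 0.564). *Atp5b*, the catalytic beta subunit, was the most abundant nuclear member of all, at 757, 850.5 and 646 RPKM against 641, 817 and 914 RPKM. Its log2 fold change was 0.07 with an interval of -0.46 to 0.59. *Atp5s* was the least abundant tested member, at 4.64, 5.57 and 3.91 RPKM against 7.0, 5.30 and 2.99 RPKM.

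The c subunit, which forms the rotating ring, is encoded by 3 genes for the same mature protein. *Atp5g3* was the highest, at 476, 541 and 436 RPKM against 271, 347 and 488 RPKM, with a log2 fold change of -0.43 (SE 0.26, limma adjusted p = 0.669). *Atp5g2* was at 74.0, 78.9 and 54.4 RPKM against 57.8, 79.8 and 60.8 RPKM, and *Atp5g1* at 14.8, 18.5 and 12.2 RPKM against 8.87, 16.3 and 19.2 RPKM. All 3 overlapped between genotypes. The level of *Atp5g2* is uncertain because every window of its transcript has an identical copy elsewhere in NCBIM37, and that of *Atp5g1* because its listed length of 4715 bases is long for so small a protein.

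Among the nuclear members a single line stood apart. *Myc*; sg*Kmt2c* replicate 1 was the lowest of the 6 lines in 50 of the 76 tested nuclear members (65.8%), against 35.9% of all genes tested and 42.0% of the 1999 genes with a mean RPKM of at least 50. It was the lowest in 23 of 36 genes of complex I, 3 of 4 of complex II, 5 of 8 of complex III, 6 of 11 of complex IV and 13 of 17 of complex V. Its median deviation from the mean of the lines was -0.30 (log2) over the nuclear members and -0.18 over the mitochondrial members. It was -0.11 over all genes tested and -0.18 over those with a mean RPKM of at least 50. With median-of-ratios scaling, tried for this count after the data were seen, it was the lowest in 38 of 76 nuclear members (50%), against 31.3% of all genes tested.

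The deficit of this line was uneven across members. *Cox7a2* was 3.13 times and *Uqcrh* 3.04 times higher on average in the other 5 lines. *Atp5k* (subunit e of ATP synthase), *Uqcr11* (a small complex III subunit) and *Ndufb6* (a complex I subunit of the membrane arm), named after their values were seen, were 2.56, 2.38 and 2.28 times higher in the other lines. *Atp5k* was at 146, 139.8 and 112 RPKM against 49.2, 98.0 and 133 RPKM, and *Uqcr11* at 159.9, 146 and 108 RPKM against 69.0, 248 and 159 RPKM. A few members went the other way, and *Myc*; sg*Kmt2c* replicate 1 was the highest line in 6 of 76.

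Without *Myc*; sg*Kmt2c* replicate 1, the median log2 fold change of the nuclear members was 0.01 and that of all genes -0.04, and the sign of the nuclear median turned. Of the 83 tested members, 10 were then lower and 6 higher without overlap, against 15.9% and 10.9% of all genes under the same setting. An unadjusted p under 0.05 was reached by 0 lower and 1 higher, against 5.31% and 3.94% of all genes. The same line also stood apart in other genes. It had the highest summed hepatocyte markers (1302 RPKM, of which *Hnf4a* 1186 RPKM), biliary or progenitor markers (3468 RPKM) and epithelial markers (3918 RPKM), and the lowest summed fibroblast markers (0.282 RPKM), with *Dcn*, *Pdgfrb*, *Pdgfra*, *Col1a2*, *Thy1* and *Acta2* at 0. The part of these differences in the nuclear members' levels was not tested. Its library was the deepest of the *Myc*; sg*Kmt2c* libraries, with 4704539 reads.

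The other lines differed from each other less. *Myc*; sg*Trp53* replicates 1 and 2 had median deviations of 0.15 and 0.12 over the nuclear members, *Myc*; sg*Trp53* replicate 3 of -0.08, and *Myc*; sg*Kmt2c* replicates 2 and 3 of 0.04 and 0.09. *Myc*; sg*Trp53* replicate 2 was the highest line in 23 of 76 nuclear members and *Myc*; sg*Kmt2c* replicate 3 in 19. For the mitochondrial members *Myc*; sg*Trp53* replicate 3 was the lowest line in 4 of 7 and *Myc*; sg*Kmt2c* replicate 1 in the other 3, and *Myc*; sg*Trp53* replicate 1 the highest in 3. *Myc*; sg*Trp53* replicate 3 and *Myc*; sg*Kmt2c* replicate 1 had nearly the same mitochondrial share of reads, at 1.98% and 2.00%.

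**Figure D5:**
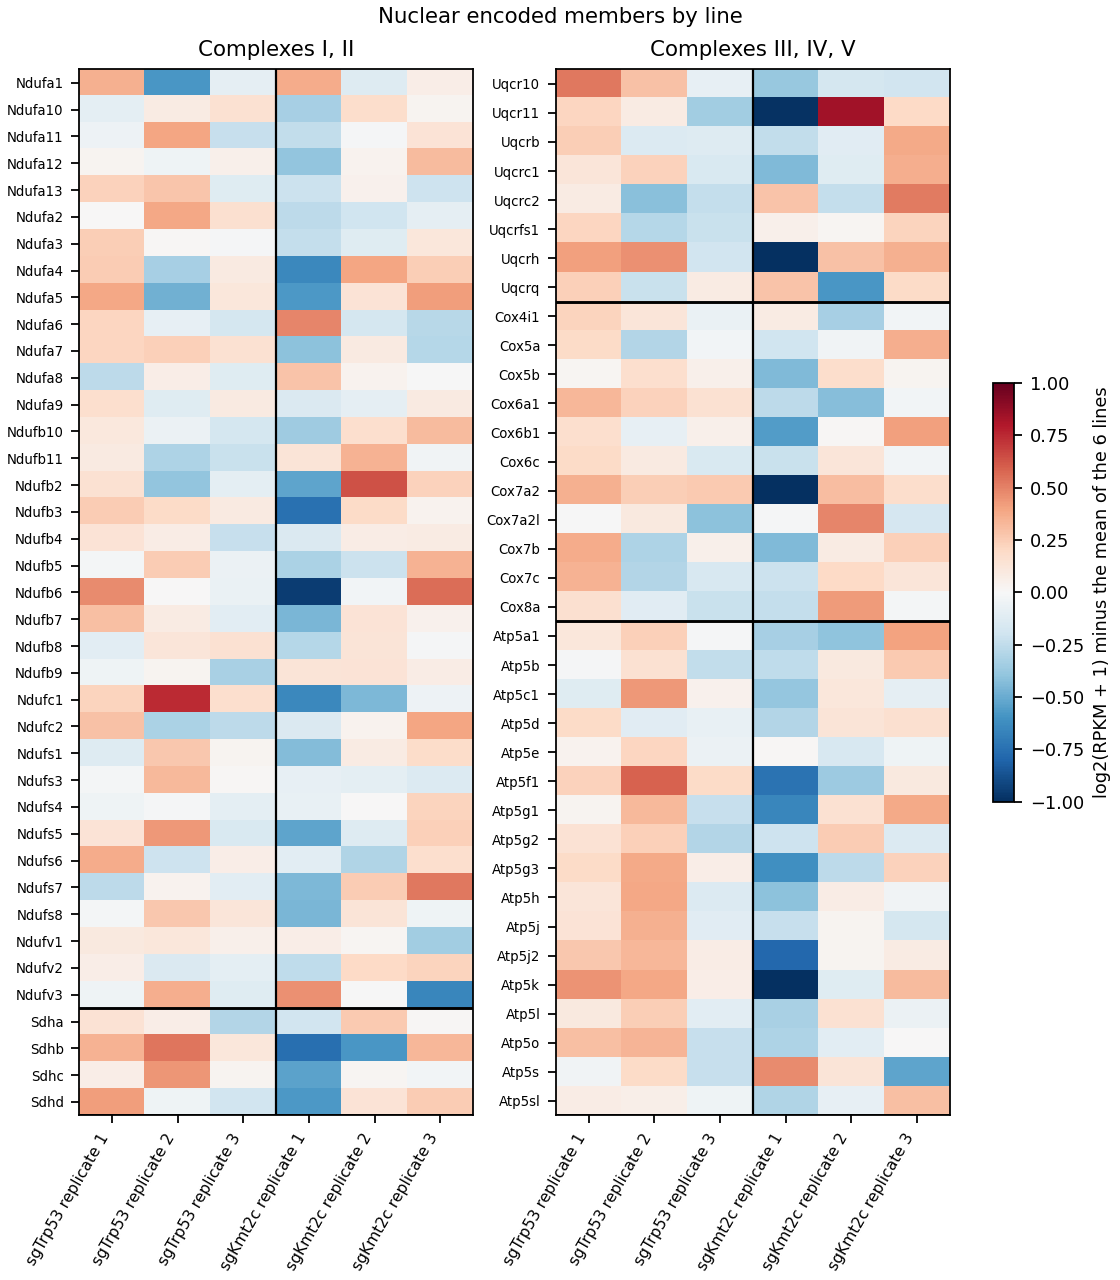
Log2(RPKM + 1) of 75 tested nuclear members in each line, minus the mean of the 6 lines, with complexes separated by horizontal lines in the order of the panel titles and genotypes by the vertical line. Colours stop at a deviation of 1 in either direction. The column of *Myc*; sg*Kmt2c* replicate 1 is the bluest, with the lowest value in 50 of the members shown.

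Genes that build or maintain the same machinery were examined from lists of names. Of 5 tested subunits and carriers that the name rule misses, 0 passed the adjusted threshold and 3 had negative log2 fold changes, with a median of -0.03. *Atpif1*, the inhibitor of ATP synthase, was at 279.7, 247 and 197 RPKM against 161, 155 and 227 RPKM, and *Usmg5*, a small ATP synthase subunit, at 199, 164 and 201 RPKM against 101, 183 and 182 RPKM. Both overlapped between genotypes.

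Of 42 assembly factors tested, 0 passed the adjusted threshold. The median log2 fold change was -0.12, with 6 of 42 lower and 1 higher without overlap, beside 10.4% and 5.72% of all genes. *Cox20*, a chaperone of the mitochondrially encoded COX2, was the higher one, at 3.48, 3.59 and 3.08 RPKM against 8.11, 6.91 and 5.46 RPKM (log2 fold change 0.82, SE 0.25, limma adjusted p = 0.450). *Uqcc2*, needed for cytochrome b and complex III assembly, was lower, at 105, 95.9 and 85.9 RPKM against 53.9, 69.4 and 74.4 RPKM (log2 fold change -0.54, SE 0.20, limma adjusted p = 0.542).

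Among 21 tested genes for mitochondrial DNA expression and maintenance the median log2 fold change was -0.13, with 0 past the adjusted threshold and 2 lower without overlap, which is close to the 10.4% of all genes. These 2 were *Mgme1*, a mitochondrial exonuclease, at 14.4, 11.7 and 14.0 RPKM against 6.44, 6.35 and 10.4 RPKM, and *Tfb1m*, an rRNA methyltransferase, at 7.17, 5.67 and 6.02 RPKM against 4.64, 4.09 and 5.11 RPKM. Of 78 tested mitochondrial ribosomal protein genes, 7 were lower and 4 higher without overlap, close to the 10.4% and 5.72% of all genes, with a median of -0.09 and 0 past the adjusted threshold. *Mrps6* was at 43.8, 36.0 and 34.0 RPKM against 91.8, 80.8 and 49.2 RPKM and *Mrpl43* at 37.7, 28.7 and 35.1 RPKM against 52.3, 48.1 and 44.7 RPKM, with limma adjusted p-values of 0.457 and 0.548.

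Of 13 tested transcription factors and coactivators of nuclear oxidative phosphorylation genes, 5 had negative log2 fold changes and 0 passed the adjusted threshold, with a median of 0.07. *Esrra*, the estrogen-related receptor alpha, was higher in all *Myc*; sg*Kmt2c* lines, at 16.2, 7.21 and 13.2 RPKM against 51.4, 24.0 and 23.3 RPKM (log2 fold change 1.33, SE 0.41, limma adjusted p = 0.474). *Gabpb2*, a partner of the ETS factor GABPA, was lower in all *Myc*; sg*Kmt2c* lines, at 23.8, 22.5 and 17.2 RPKM against 9.98, 14.0 and 16.9 RPKM (log2 fold change -0.62, limma adjusted p = 0.587). Of the 13 genes, 1 was higher and 1 lower without overlap, beside 5.72% and 10.4% of all genes. The highest *Esrra* and the lowest *Gabpb2* level were both found in *Myc*; sg*Kmt2c* replicate 1. That line was the lowest in 5 of the 13 genes (38.5%) and the highest in 3 (23.1%), beside 35.9% and 23.6% of all genes tested.

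The 17 enzymes of the tricarboxylic acid cycle had a median log2 fold change of 0.00, with 8 negative values and 0 past the adjusted threshold. *Idh3b*, a subunit of the NAD-dependent isocitrate dehydrogenase, was lower without overlap, at 134, 130.3 and 103 RPKM against 92.6, 95.8 and 99.5 RPKM, and its partner *Idh3g* overlapped, at 109, 64.7 and 64.0 RPKM against 105, 97.0 and 88.6 RPKM. *Myc*; sg*Kmt2c* replicate 1 was the lowest line in 9 of 21 genes for mitochondrial DNA expression and maintenance (42.9%) and in 32 of 78 mitochondrial ribosomal protein genes (41.0%). It was the lowest in 6 of 17 tricarboxylic acid cycle genes (35.3%) and in 13 of 42 assembly factors (31.0%), beside 65.8% for the nuclear members. Its median deviation over these lists, in the same order, was -0.21, -0.23, -0.08 and -0.05, beside -0.30 for the nuclear members.

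Of the 76 tested nuclear members, 53 had copies elsewhere for less than 10% of their windows and 34 for none, while 6 had copies for more than 50%. Besides *Atp5g2* and *Cox7a2l* these were *Atp5l* (89.4%), *Atp5h* (69.5%), *Cox5b* (62.7%) and *Uqcrb* (61.5%), and their levels are uncertain. Of the genes without overlap, *Ndufs3* had copies for 43.0% of its windows. For 10 of 76 members the longest GENCODE transcript was more than 1.5 times as long as the listed one, so that comparisons of level between genes, unlike those between lines, carry the choice of transcript.

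The promoters of the nuclear members were searched for 4 short motifs known from genes of this kind, to show what sequence they share. RefSeq windows of 300 bases (250 before and 50 after a start, GRCm38.p6) were matched for 68 of 83 nuclear members, 74 windows in all. GCGCATGCG, the core of the nuclear respiratory factor 1 site, was found in 8 of 74 windows (10.8%), against 1.75% of all 32851 promoter windows and 3.83% of those of genes tested. AAGATGGC, a YY1 motif, was found in 12 windows (16.2%), against 2.75% and 4.70%. CCGGAAG, an ETS core, was found in 16 (21.6%), against 8.86% and 18.6%, and the E-box CACGTG, to which MYC can bind, in 9 (12.2%), against 7.15% and 10.2%. Both strands were searched, the ETS and YY1 motifs can overlap by AAG, and 36 of 74 windows held at least 1 of the 4.

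Windows around the nuclear respiratory factor 1 core are shown for *Cox6a1*, lower in all *Myc*; sg*Kmt2c* lines, and for *Uqcr11* and *Atp5k*, lowest in *Myc*; sg*Kmt2c* replicate 1. They lie at chr5:115349092-115349140, chr10:80406798-80406846 and chr5:108434421-108434469 (GRCm38.p6, minus strand), with the motif or its reverse complement in capitals. Of the other members with this motif, *Atp5l*, *Uqcrc1* and *Ndufa11* were also lowest in *Myc*; sg*Kmt2c* replicate 1. With or without the motif, 65.8% of the tested nuclear members were lowest in that line. *Ndufa8* was highest in that line, with a log2 fold change of 0.21, and *Atp5g2* was lowest in *Myc*; sg*Trp53* replicate 3. A relation between the motif and the levels was not tested. A match is a string of letters and not evidence of binding.
Cox6a1: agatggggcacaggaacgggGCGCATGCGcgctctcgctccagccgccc
Uqcr11: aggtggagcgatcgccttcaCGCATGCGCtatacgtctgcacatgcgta
Atp5k: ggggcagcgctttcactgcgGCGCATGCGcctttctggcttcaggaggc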

How the data were processed

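RNA of 6 mouse liver tumor cell lines was sequenced. Per the paper's methods and the submitters' processing notes, the authors trimmed adaptors with Trimmomatic, aligned reads to GRCm38 with STAR and counted reads with HTSeq. The authors deposited RPKM values per gene with 1 transcript length each. The table has 21065 rows, 209 without values, and 6 further columns of other samples that were not used. The authors' deposited DESeq2 comparison (mean signal, log2 fold change, score and p-value per gene) was not used. RPKM times length gave whole reads for 100% of values (tolerance 0.01 of a read), and these totals are the depth.

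Genes that reached 1 RPKM in 3 or more libraries were tested with limma 3.58.1 in R 4.3.3 (eBayes with trend) on log2(RPKM + 1), genotype as the only term, Benjamini-Hochberg adjustment over all genes. The pseudocount understates changes of low genes. Transcripts (GENCODE vM1, NCBIM37) were searched against NCBIM37 with blastn 2.17.0 in windows of 50 bases; sequences by coordinates come from NCBIM37, promoters from RefSeq. Deposited coordinates are GRCm38.

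Members and lists were chosen with earlier results of these data known. Named are all mitochondrial members; per complex the highest and lowest tested nuclear member; up to 8 nuclear members per direction without overlap by unadjusted p; alternative isoforms; and the 2 genes with the smallest unadjusted p of each related list. A gene that the rule names is not reported here. Names outside this rule were chosen after their values were seen. Cell type markers were hepatocyte, biliary or progenitor, epithelial, fibroblast, immune, endothelial and muscle genes. Alternatives were other pseudocounts, filters, scalings and tests, the replicate number as a block, each library left out, and *Myc*; sg*Kmt2c* lines 2A and 2T1 as a single sample. Intervals of read counts cover counting error only. Read length and the handling of strand in counting are not given in the sources used here.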

Additional observations from a re-analysis of the deposited data

How the results depend on the processing

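No alternative gave a member past an adjusted p of 0.05, and none of the 45 tested genes named by the rule above was called in any of 18 alternatives. These 45 leave out *Trp53*, *Kmt2c* and the genes named after their values were seen. Their log2 fold change changed sign in 47 of 810 combinations of gene and alternative, over 17 genes, the largest of which was *Uqcrh*.

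At an unadjusted p under 0.05, 3 members were lower. This count was 5 with quantile normalization, and 1 each with eBayes without trend, limma voom on recovered reads and the replicate block. Leaving out 1 library gave 0 to 7 lower and 0 to 1 higher, with 0 lower without *Myc*; sg*Trp53* replicate 2 or *Myc*; sg*Kmt2c* replicate 1 and 7 without *Myc*; sg*Kmt2c* replicate 3. Members without overlap numbered 8 lower and 1 higher. The higher count was 2 with median-of-ratios scaling and with limma voom on recovered reads. Under median-of-ratios scaling 6 members were lower, beside 894 higher and 927 lower of all 11617 genes tested. With lines 2A and 2T1 as a single sample 3 members were higher and 12 lower, with fewer samples to separate. Without 1 library the counts were 1 to 7 higher and 9 to 22 lower, since fewer lines have to be separated. The higher count was 7 without *Myc*; sg*Trp53* replicate 1 and 6 without *Myc*; sg*Kmt2c* replicate 1. The lower count was 22 without *Myc*; sg*Trp53* replicate 3, and 14 and 16 without *Myc*; sg*Kmt2c* replicates 2 and 3. Among settings without 1 library, shares of all genes were taken only without *Myc*; sg*Kmt2c* replicate 1. There 15.9% were lower and 10.9% higher without overlap, and 5.31% and 3.94% at an unadjusted p under 0.05. The counts of the remaining alternatives have no such share beside them, so whether they exceed the background is not known.

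The median log2 fold change of the nuclear members ran from -0.20 to 0.01 and that of the mitochondrial members from -0.16 to 0.10 when 1 library was left out. The cause was not tested. Same-numbered lines had correlated deviations of 0.19, 0.40 and 0.03 for replicates 1, 2 and 3, so the numbers were not taken to pair the lines, and replicate 3 did not correlate best with its own number. Depth limits the low isoforms, where 3 reads are worth up to 2.25 RPKM.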

Other observations

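The ribosomal RNAs of the mitochondrial genome are not members, and they were looked at after the values were seen. *mt-Rnr2*, the large ribosomal RNA (MT:1094-2675), was at 2563, 1842 and 1727 RPKM in *Myc*; sg*Trp53* replicates 1, 2 and 3 against 800.2, 478 and 1467 RPKM. All of the latter were lower, as was found without overlap for 10.4% of all genes tested. The log2 fold change was -1.29 (SE 0.42, 95% confidence interval -2.30 to -0.27). It did not pass the adjusted threshold (limma unadjusted p = 0.0202, limma adjusted p = 0.493). *mt-Rnr1*, the small ribosomal RNA, was at 545, 721 and 488 RPKM against 554, 385 and 662 RPKM, with overlapping genotypes and a log2 fold change of -0.15 (SE 0.27). The 7 measurable protein genes of the same genome had log2 fold changes between -0.22 and 0.19. Whether the change of *mt-Rnr2* differed from theirs was not tested. The ribosomal RNA genes were not part of the search for copies elsewhere in the genome.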
